A study of Mus musculus with 9 samples.

Results

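Cytosolic ribosomal protein genes encode the proteins of the large and small subunits of the ribosome that translates nuclear messages. They were taken as the protein-coding genes of the GRCm38.p6 RefSeq table whose symbols begin with Rpl or Rps and a digit, or read Rplp0 to Rplp2, without the S6 kinases. The rule found 90 of 21887 protein-coding genes. Of these, 76 encode core ribosomal proteins, 46 of the large and 30 of the small subunit. The other 14 are paralogs, retrocopies annotated as protein-coding, and Rps19bp1, which encodes a binding partner of Rps19 and no ribosomal protein. Rpsa, Rack1 and Fau also give rise to ribosomal proteins but fall outside the symbol rule.

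The chromatin came from lung endothelial cells of wild-type (WT) mice, and no other genotype or treatment was profiled. Permeabilised nuclei were treated by ACT-seq, in which an antibody guides a Protein A/G-bound Tn5 transposase to cut and tag the DNA around its mark. There were 9 libraries, 1 each for H3K14ac, H4K8ac, H3K18ac, H3K27ac, H3K23ac, H2AK5ac, H3K4me3, H3K9ac and an IgG control, so no value has a replicate error and no test was made. The number of mice, their age and sex, and the purity of the cells are not stated in the labels.

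Ribosomal protein genes are among the most active housekeeping genes, since growing cells need every subunit protein in matched amounts. Many of their messages begin with a run of pyrimidines, the 5-prime TOP (terminal oligopyrimidine) element, through which mTOR signalling and the RNA-binding protein Larp1 set their translation. H3K4me3 marks the starts of active genes, and the lysine acetylations profiled here are deposited by several acetyltransferases at active promoters and enhancers.

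The starts of a few genes are shown because the results turn on them. Each is the 30 bases around the start that RefSeq annotates (15 before it, then the start and the next 14), on the gene's strand in GRCm38.p6, with a run of at least 5 pyrimidines that begins with C at the start or 1 base to either side in capitals. Rpl15 (chr14:18270972-18271001) and Rps10 (chr17:27635230-27635259) begin with such a run, while Rpl4 (chr9:64173372-64173401) and Rps19 (chr7:24884577-24884606) do not at this annotated base. Rps27l (chr9:66946071-66946100) is a paralog induced by p53, and Rpl10l (chr12:66284387-66284416) and Rpl39l (chr16:10170213-10170242) are paralogs known from the testis.
Rpl15: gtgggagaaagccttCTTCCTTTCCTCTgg
Rps10: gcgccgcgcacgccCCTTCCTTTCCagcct
Rpl4: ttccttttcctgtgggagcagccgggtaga
Rps19: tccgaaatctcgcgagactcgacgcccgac
Rps27l: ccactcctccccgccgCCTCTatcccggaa
Rpl10l: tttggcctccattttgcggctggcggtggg
Rpl39l: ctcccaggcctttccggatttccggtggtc

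A 5-prime TOP, taken as C at or next to the annotated start followed by at least 4 pyrimidines, was found in 17 of the 56 core genes that have a promoter entry, which is 30.4% against 6.20% of all 17492 promoters. The longest run was that of Rpl27a, with 17 bases, followed by Rpl15 with 13 and Rpl35 with 12. In Rpl4 a pyrimidine run lies a few bases before the annotated start. A looser search, added after the sequences had been seen, asked for C and at least 7 further pyrimidines that begin within 25 bases of the start. It found 32 of the 56 core promoters, or 57.1%, against 16.8% of all.

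The ETS-factor core CCGGAAG, searched on both strands from 250 bases before to 50 bases after the start, was present in 22 of 56 core promoters (39.3%) and in 11.9% of all promoters. Of 25 matches that could be shown with their flanks, 20 lay upstream of the start and 18 within 100 bases of it. Most of the searched stretch itself lies upstream, so the count upstream shows no preference. Positions in all promoters are not given for comparison. Stretches of 30 bases around the motif, on the gene's strand with the motif in capitals, are given for 3 of these promoters, whose genes are described further on. The stretch of Rps6 lies at chr4:86857440-86857469 and that of Rpl11 at chr4:136053369-136053398. That of Rps2, where the motif reads on the opposite strand, lies at chr17:24719925-24719954.
Rps6: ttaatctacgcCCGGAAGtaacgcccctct
Rpl11: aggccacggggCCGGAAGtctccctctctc
Rps2: atttatacgtcCTTCCGGctggtgtagggc

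Other short motifs differed less between core and all promoters. The Sp1 box GGGCGG was in 33 of 56 core promoters (58.9%; 46.3% of all) and the YY1 core AAGATGG in 8 (14.3%; 6.37% of all). TATAAA was in 5 (8.93%; 13.3% of all), and the E-box CACGTG also in 5, against 7.90% of all promoters. These are matches of letters and no sites of binding.

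The deposited table joins 8 peak lists under shared names, and the lists were separated again by their genome order, spacing and widths. Each list is named by the library whose reads are densest in it, which had from 1.98 to 23.8 times the density of the next library. These densities were estimated by a non-negative least-squares fit of the counts to the kb of each list that no other region overlaps. They were not counted directly. For 5 of the lists the next library was IgG, with 6.00 CPM (counts scaled to a library total of 1000000) per kb in the H3K14ac list, 13.2 in H3K18ac, 22.3 in H3K27ac, 28.4 in H3K4me3 and 16.96 in H3K9ac. The H3K27ac and H3K14ac lists were the least set apart, with 44.2 and 13.4 CPM per kb in their own library, or 1.98 and 2.24 times the IgG density. Library totals in the table ran from 365999 reads for IgG to 10044130 for H3K14ac, and lists from 48943 peaks (H3K9ac) to 578465 (H3K14ac). Of 11 endothelial marker genes, 7 had peaks of every list at their ends, Cdh5, Pecam1 and Kdr among them. That held for 1 of 8 lung epithelial markers, 0 of 7 leukocyte markers and 0 of 7 mesenchymal markers. Cldn5, an endothelial tight-junction gene, had no peak of any list.

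At the ends of the ribosomal protein genes (2 kb either side of both gene ends), peaks of all 8 lists were present at 53 of 90 members, against 31.1% of all protein-coding genes. Peaks of 7 or 8 lists were present at 81 of 90, where 47.7% of all genes had as many. Among the 76 core genes the counts were 49 and 75. Only Rps10 and the retrocopy Rpl31-ps12 had no peak of any list, a state found at 9.33% of all genes. The core genes are short, with a median span of 3169.5 bp against 17169 bp for all genes, and their windows were smaller (median 7169.5 bp against 8002 bp).

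**Figure D1:**
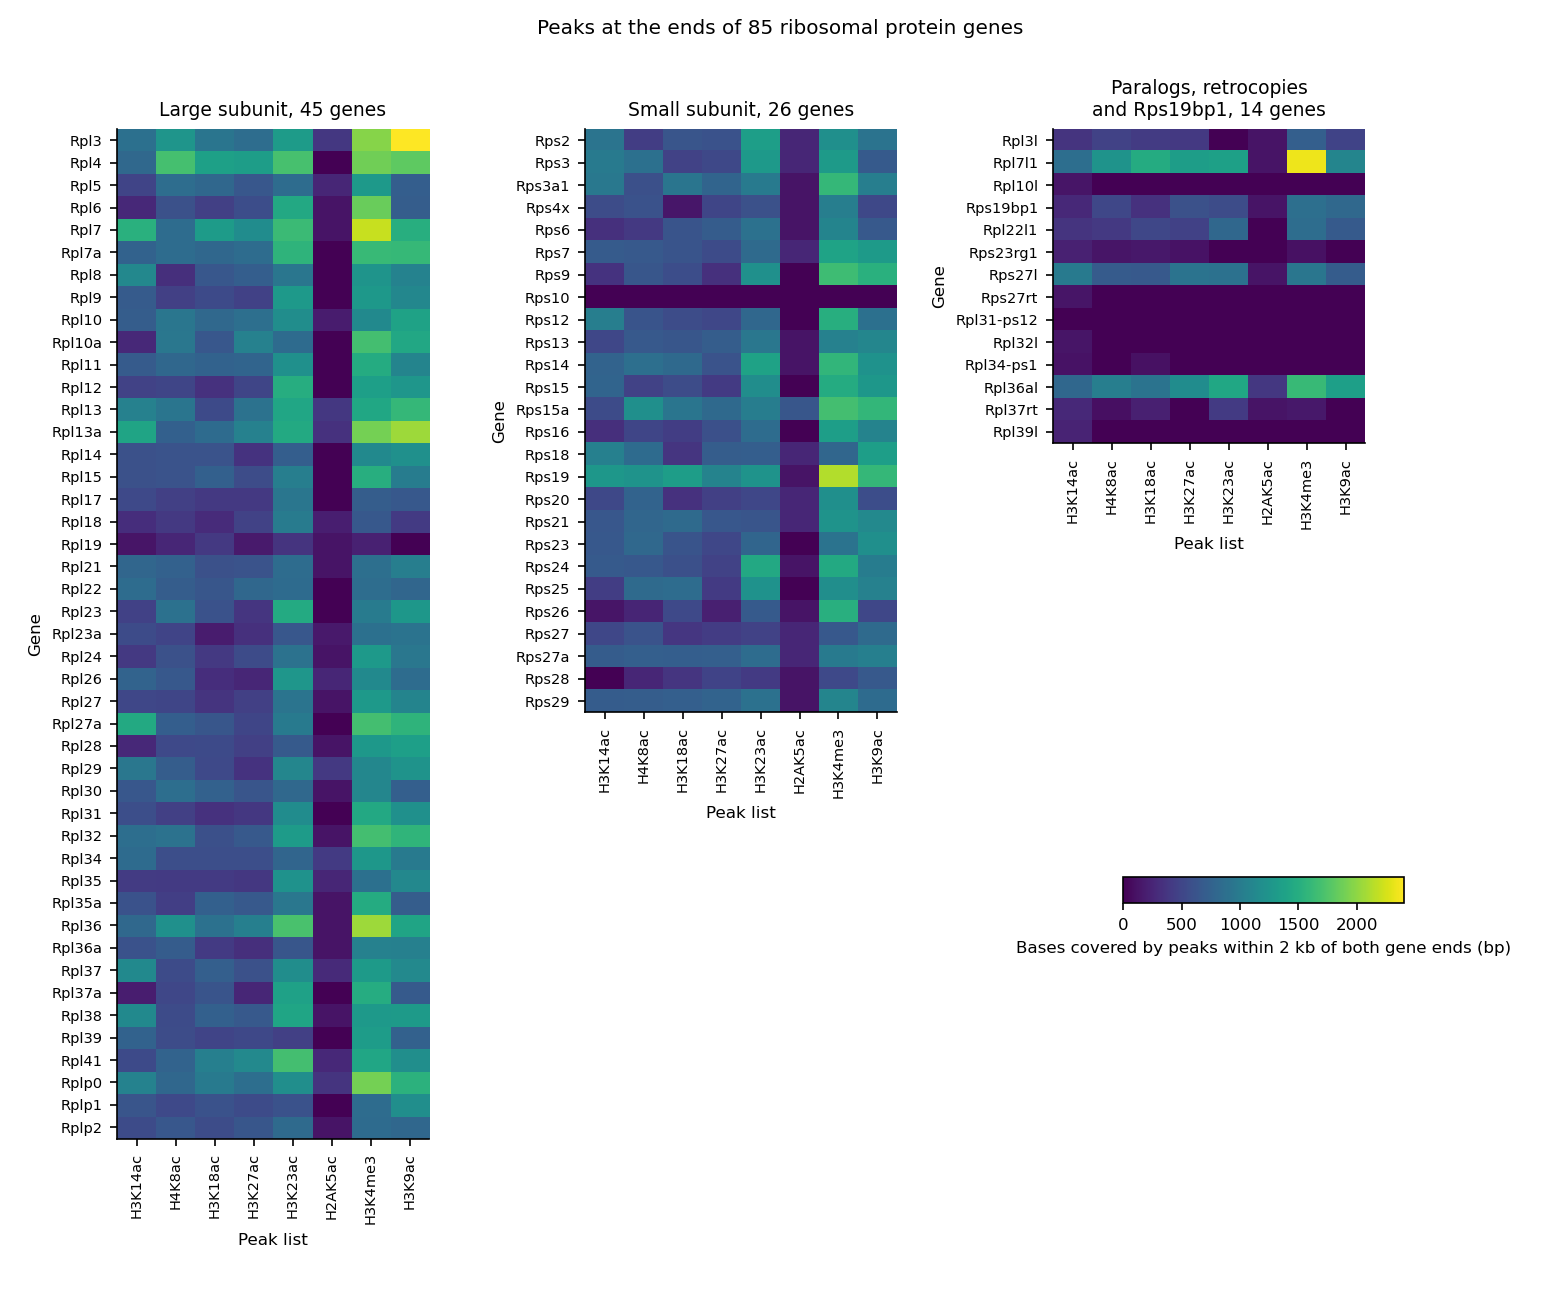
Bases covered by peaks within 2 kb of both gene ends, for 85 of the 90 ribosomal protein genes (rows) and 8 peak lists (columns), with 0 in the darkest colour and the highest value, 2405 bp, in the brightest. Most core genes are bright in H3K23ac, H3K4me3 and H3K9ac and dark in H2AK5ac, Rps10 is dark in every column, and 6 of the 14 genes in the right-hand panel have peaks of 2 lists or fewer.

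By list, members with a peak numbered 87 of 90 for H3K14ac (85.0% of all genes), 83 for H4K8ac (66.9%), 84 for H3K18ac (68.4%) and 82 for H3K27ac (63.1%). They numbered 81 for H3K23ac (57.4%), 83 for H3K4me3 (61.5%), 80 for H3K9ac (50.3%) and 57 for H2AK5ac (39.8%). The share of members was above the share of all genes in each list, with the smallest gap for H3K14ac, whose peaks lie at most genes. Without the 61 members that have another protein-coding gene end within 4 kb, 16 of the remaining 29 had peaks of every list, against 21.6% of the 12616 protein-coding genes without such a neighbour.

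The core genes lay farthest above the background in H3K9ac, H3K23ac and H3K4me3, where coverage was also broadest. H3K9ac peaks covered a median of 1080.5 bp at the 76 core genes and 113 bp at all protein-coding genes. H3K23ac covered a median of 972 bp against 206 bp, and H3K4me3 1300.5 bp against 539 bp. For H3K14ac, H4K8ac, H3K18ac and H3K27ac the core medians lay between 555 and 656 bp, with 327 to 442 bp over all genes. The median core gene stood at percentile 87.1 of all protein-coding genes in H3K9ac, 82.4 in H3K4me3 and 82.3 in H3K23ac, but at 64.1 in H3K27ac. The medians of initiation and elongation factor genes, given further on, were higher still in H3K9ac, H3K4me3 and H3K23ac.

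H2AK5ac was the list that core genes most often lacked. It was also the list that all genes most often lacked. A peak was present at 51 of the 76 core genes (67.1%), against 39.8% of all genes. This list alone was lacking at 24 core genes, among them Rpl4, Rpl11, Rpl15, Rpl23, Rps15 and Rps25. Of the H2AK5ac peaks that were present, most had the commonest width in that list, 129 bp: a wider one was found at 11 core genes, or 14.5%, where 12.7% of all genes had one. If only peaks wider than the commonest width of their list are counted, 9 of 90 members keep all 8 lists, near the 9.96% of all genes. Each of the other lists had a wider peak at most core genes: 75 for H4K8ac (55.9% of all genes), H3K18ac (58.5%), H3K27ac (60.4%) and H3K4me3 (55.0%), 74 for H3K23ac (40.2%), 73 for H3K9ac (39.8%) and 63 for H3K14ac (56.0%). Leaving H2AK5ac out, a choice made after seeing the data, wider peaks of all 7 other lists were present at 66 of 90 members and 62 of 76 core genes, against 33.2% of all genes.

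The mitochondrial ribosomal proteins, whose 78 genes make the ribosome inside mitochondria, offer a second set of housekeeping genes of like function. They had peaks of all 8 lists at 42 genes. Their medians lay beside those of the core cytosolic genes for H4K8ac (658.5 bp and 656 bp), H3K18ac (559 and 610 bp), H3K27ac (609.5 and 555 bp) and H3K14ac (609 and 655 bp). They were lower for H3K9ac (534.5 bp against 1080.5 bp), H3K23ac (624 bp against 972 bp) and H3K4me3 (964.5 bp against 1300.5 bp). With genes that have a neighbouring gene end within 4 kb left out, 23 core and 21 mitochondrial genes remained, and the medians were 891 bp against 302 bp for H3K9ac and 846 bp against 428 bp for H3K23ac. For H3K4me3 they were 1348 bp against 814 bp and for H3K27ac 581 bp against 572 bp. With 1 library a mark, these differences describe the libraries and have no test.

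**Figure D2:**
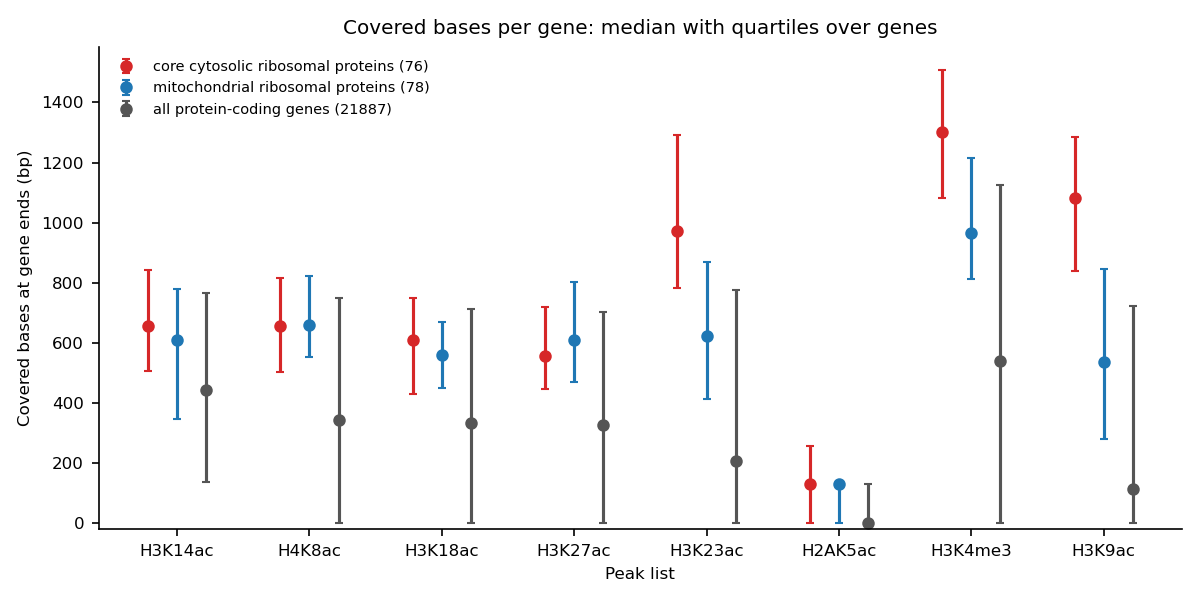
Bases covered by peaks at gene ends (vertical axis, bp) for each peak list (horizontal axis), with points at the median and bars from the lower to the upper quartile over genes. The 76 core cytosolic and 78 mitochondrial ribosomal protein genes lie close together for H4K8ac, H3K18ac and H3K27ac, and the core genes lie higher for H3K23ac, H3K4me3 and H3K9ac.

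Around the annotated start the lists fell into a narrow and a broad group, at the core genes and over all genes. The broad lists also have wider commonest peaks: 206 bp in H3K23ac, 204 bp in H3K9ac and 157 bp in H3K4me3. In the narrow lists H4K8ac, H3K18ac and H3K27ac the commonest widths are 102, 104 and 108 bp. How far these widths shape the split was not tested. Among the 56 core genes with a promoter entry, a peak lay over the start base itself in 55 for H3K4me3 (50.0% of all 17492 genes with such an entry). It did so in 53 each for H4K8ac (43.9%), H3K18ac (45.1%) and H3K27ac (46.4%), in 52 for H3K9ac (33.6%) and in 50 for H3K23ac (33.6%). H3K14ac covered 39 of the 56 starts (39.0% of all) and H2AK5ac 12 (9.64%). Peaks of 7 or 8 lists lay over the start of 38 core genes (22.4% of all), and of every list over 9 (5.80%).

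H4K8ac, H3K18ac and H3K27ac lay close to the start of the core genes. For each of these lists the share of genes covered fell below 50% of its maximum within 200 bp on both sides. Over all genes it did so within 250 bp upstream and 300 bp downstream. At the core genes H3K23ac reached to 500 bp downstream by the same measure, H3K9ac to 600 bp and H3K4me3 to 850 bp. Over all genes the downstream limits were 600 bp, 600 bp and 750 bp, so that by this measure the core genes reached no farther than all genes for H3K23ac and H3K9ac, and 100 bp farther for H3K4me3. In the mitochondrial set the limits were shorter, at 250 bp, 350 bp and 550 bp. At 1000 bp into the gene, H3K4me3 covered 37.5% of core genes, 4.35% of mitochondrial ribosomal protein genes and 12.1% of all genes, and H3K9ac covered 14.3%, 1.45% and 6.65%.

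**Figure D3:**
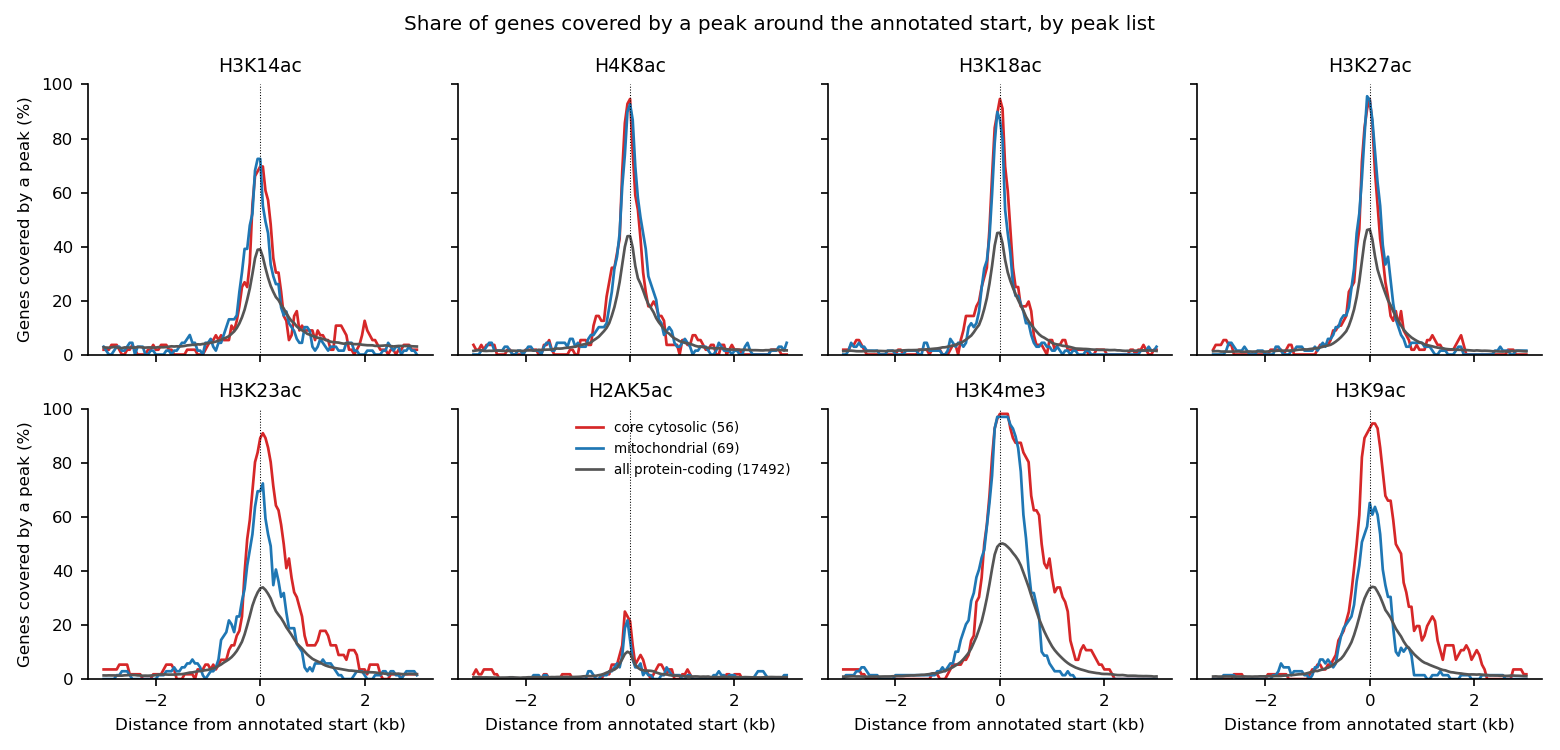
Share of genes covered by a peak (vertical axis, %) against distance from the annotated start (horizontal axis, kb, downstream to the right), 1 panel a peak list, for 56 core cytosolic ribosomal protein genes (red), 69 mitochondrial ones (blue) and 17492 protein-coding genes (grey). Red and blue overlap for H4K8ac, H3K18ac and H3K27ac, while for H3K23ac, H3K4me3 and H3K9ac the red curve extends farther downstream than the blue one.

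The broad marks leaned downstream at most core genes. H3K4me3 covered more bases downstream than upstream of the start at 48 of 55 core genes with a peak there, and more upstream at 7. Of all genes with such a peak 75.5% leaned downstream. The counts were 45 and 10 for H3K9ac (67.6% of all) and 44 and 11 for H3K23ac (66.3%). H3K27ac showed no lean, with 27 genes downstream and 28 upstream (58.4% of all downstream). The mitochondrial ribosomal protein genes had 45 downstream and 23 upstream for H3K4me3 and 31 against 28 for H3K9ac.

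Large and small subunit genes carried similar coverage. The median was 1300.5 bp for the 46 large and 1273 bp for the 30 small subunit genes in H3K4me3, and 1114 and 1047.5 bp in H3K9ac. In H3K23ac the large subunit genes had 1067.5 bp and the small ones 874 bp, both with wide quartiles (839 to 1365 bp and 675 to 1220 bp). H2AK5ac peaks were present at 29 of 46 large and 22 of 30 small subunit genes. In H3K27ac the medians were 573 and 522 bp.

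Among large subunit genes, Rpl4, which lines the exit tunnel of the ribosome, had the most covered bases of any member in H4K8ac (1697 bp). Its other values were 1370 bp in H3K18ac, 1343 bp in H3K27ac, 1705 bp in H3K23ac, 1884 bp in H3K4me3, 1805 bp in H3K9ac, 815 bp in H3K14ac and 0 in H2AK5ac. Neighbouring genes share these windows: Zwilch lies 283 bp from Rpl4 on one side and Snapc5 lies 735 bp from it on the other. The H3K27ac peaks lay in separate blocks, from 953 to 420 bp upstream of the Rpl4 start, from 37 bp upstream to 284 bp downstream, and from 5748 to 6234 bp, beyond the gene's end. Whose promoter a peak belongs to cannot be told apart where genes lie this close.

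Rpl7, 1449 bp from Rdh10, had the most H3K14ac (1522 bp) and, of the core genes, the most H3K4me3 (2199 bp). Rpl3, which takes part in forming the peptidyl transferase centre, had the most H3K9ac of any member, 2405 bp, with 1972 bp of H3K4me3, and no other gene end lies within 4 kb of it. Rpl13a, also known for repressing the translation of inflammatory messages, followed in H3K9ac with 2049 bp, but it has another gene end within 4 kb. Rpl36, 51 bp from Lonp1, had the most H3K23ac, 1719 bp.

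Rplp0, which anchors the acidic stalk, had 1903 bp of H3K4me3, 1547 bp of H3K9ac and 363 bp of H2AK5ac, one of the larger H2AK5ac values. Within 2 kb of its start Rplp0 had 1021 bp of H3K4me3, 1110 bp of H3K9ac and 234 bp of H2AK5ac. Another gene end lies within 4 kb of Rplp0, and also of Rpl5, Rpl10 and Rpl23, described next. Rpl5 and Rpl11, which bind and restrain Mdm2 when ribosome assembly fails, had 1301 and 1482 bp of H3K4me3. Their H3K9ac values were 718 and 1082 bp, and H2AK5ac was 258 bp at Rpl5 and 0 at Rpl11. Rpl10, which joins the large subunit late in its assembly and lies on chromosome X, had 1141 bp of H3K4me3 and 1382 bp of H3K9ac. Rpl23 had 996 bp of H3K4me3, 1470 bp of H3K23ac and no H2AK5ac.

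Of the small subunit genes, Rps19, the gene most often mutated in Diamond-Blackfan anaemia, was the most broadly covered one that has no close neighbour. It had 1277 bp of H3K14ac, 1232 bp of H4K8ac, 1338 bp of H3K18ac, 1077 bp of H3K27ac, 1231 bp of H3K23ac, 129 bp of H2AK5ac, 2127 bp of H3K4me3 and 1603 bp of H3K9ac. A single H3K4me3 peak ran from 717 bp upstream to 968 bp downstream of its start. The H3K27ac peak there ran from 703 bp upstream to 265 bp downstream, so both began close together and H3K4me3 went farther into the gene.

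Rps6, the substrate of the S6 kinases, had 1088 bp of H3K4me3, 672 bp of H3K9ac and 699 bp of H3K27ac. Rps14, whose loss impairs red cell formation, had 1584 bp of H3K4me3 and 1227 bp of H3K9ac. Rps3 and Rps2, which sit where the message enters the ribosome, had 1313 and 1202 bp of H3K4me3 and 679 and 914 bp of H3K9ac. Rps15a had the most H2AK5ac of any member, 645 bp, in peaks no wider than 129 bp. Only 129 bp of it lay within 2 kb of the start, and the gene has another gene end within 4 kb.

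At the low end, Rps28 lacked only H3K14ac. Its 7 other lists had 1 peak each over or beside the start, with 527 bp of H3K4me3 and 673 bp of H3K9ac, so its H3K9ac exceeded its H3K4me3. Rps26, a protein of the message exit site, had 207 bp of H3K27ac and 247 bp of H4K8ac but 1519 bp of H3K4me3. Its H3K27ac and H4K8ac peaks lay 226 to 476 bp upstream of the annotated start, and only 2 lists covered the start base. Rps4x, on chromosome X, had 149 bp of H3K18ac, the least of core genes other than Rps10.

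Rpl19 was low at its annotated ends but not at its start. At the ends of its gene record it had 217 bp of H3K4me3 and no H3K9ac, but the start in the promoter entry lies 4707 bp inside the record. Within 2 kb of that start it had 1305 bp of H3K4me3, 935 bp of H3K9ac and 1463 bp of H3K23ac, and 7 lists covered the start. Rpl18, with the least H3K9ac of the remaining core genes at its ends (408 bp), had 1238 bp within 2 kb of a start 2604 bp inside its record.

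Rps10, a protein of the small subunit's head, had 0 covered bases in all 8 lists (chr17:27630415-27635244). The nearest peak of any list ended 17332 bp before it and the next began 7134 bp after it. This stretch of 29294 bp without a peak is longer than all but 0.569% of the 819219 gaps between peaks, whose median is 1480 bp. Of all protein-coding genes, 739, or 3.38%, lie wholly in gaps of at least this length, and Rps10 was the only member among them. Its promoter carries both a 5-prime TOP run of 11 bases and a CCGGAAG match. An absence from the lists shows that no peak was called there, not that the marks are absent, and reads between peaks were not analysed here.

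**Figure D4:**
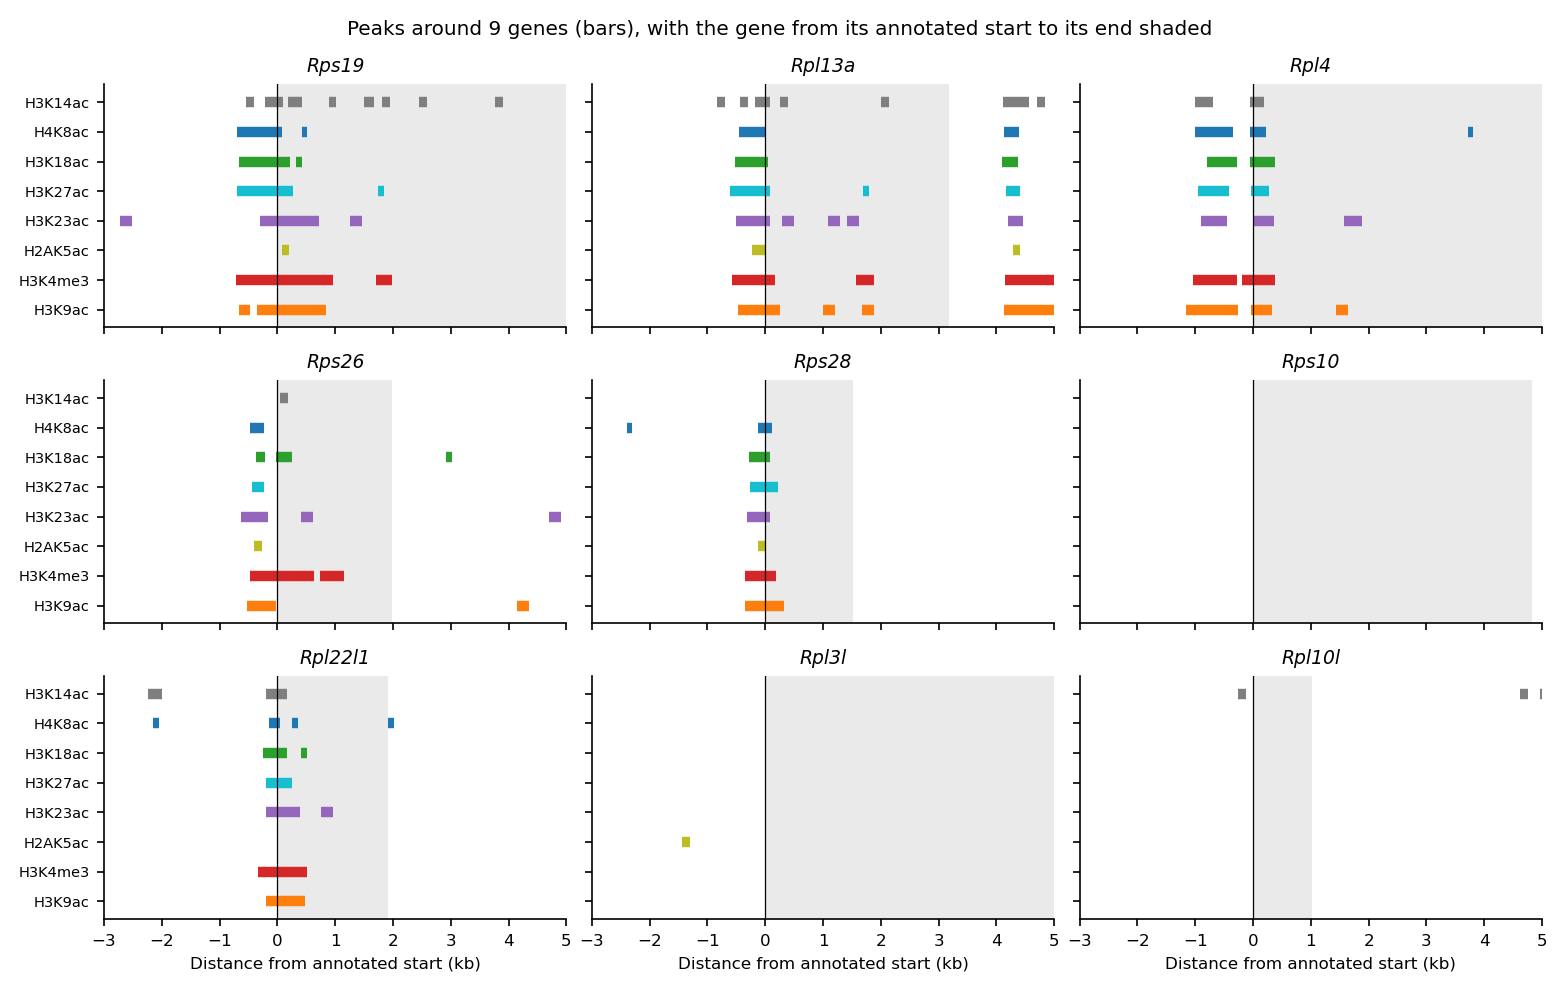
Peaks (bars) of the 8 lists (rows) around 9 genes, by distance from the annotated start (horizontal axis, kb, downstream to the right), with the gene shaded from its start to its end. Rps19 has long H3K4me3 and H3K9ac bars across its start and Rpl4 has a separate upstream block. Rps26 has its H3K27ac and H4K8ac peaks upstream of its start, Rps10 has no peak, and Rpl3l and Rpl10l have no peak over their starts.

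The paralogs divided by gene. Rps27l, a target of p53, had peaks of all 8 lists, and all of them covered its start. Rpl22l1, which can stand in for Rpl22, lacked only H2AK5ac, with 858 bp of H3K4me3 and 679 bp of H3K9ac, beside 860 and 798 bp at Rpl22. The start of Rpl22 lies 1290 bp inside its record. Within 2 kb of that start Rpl22 had 915 bp of H3K4me3 and 1010 bp of H3K9ac, where Rpl22l1 had 858 and 679 bp around its own. Rpl36al, 91 bp from Mgat2, and Rpl7l1, 500 bp from a neighbouring gene, had all 8 lists, with 1621 and 2348 bp of H3K4me3. The value of Rpl7l1 was the highest H3K4me3 of all 90 members. Rps19bp1 also had all 8, with 876 bp of H3K4me3.

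Paralogs known from other tissues had few or no peaks at their starts. Rpl10l, a testis gene, had only 138 bp of H3K14ac, against 1141 bp of H3K4me3 at Rpl10. Rpl39l had only 242 bp of H3K14ac, where Rpl39 had 752 bp of H3K14ac and 1334 bp of H3K4me3. Rpl3l, the form of Rpl3 used in heart and skeletal muscle, had peaks of 7 lists at its ends. None of these covered its start: within 2 kb of it there was 129 bp of H2AK5ac and nothing else, and Msrb1 begins 450 bp from its far end.

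Most retrocopies annotated as protein-coding were nearly bare. Rps27rt and Rpl32l had 138 bp of H3K14ac each and nothing else, Rpl34-ps1 had 119 bp of H3K14ac and 104 bp of H3K18ac, and Rpl31-ps12 had no peak. A TOP-like run is found at the annotated starts of Rpl32l (10 bases) and Rps27rt (6 bases) too. Rps23rg1 had peaks of 5 lists and Rpl37rt, 31 bp from Acads, of 6, with none over the start of either. The 309 ribosomal protein pseudogenes of the table, a comparison chosen after the data were seen, also had few H3K4me3 peaks. Such a peak was present at the ends of 41, or 13.3%. An H3K14ac peak was present at 57.0%, and 92 had no peak of any list. Of the 211 that lie at least 4 kb outside protein-coding genes, 24 had H3K4me3 and 11 H3K9ac.

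Across the 76 core genes, covered bases moved together most between H3K18ac and H3K27ac (Spearman's rho of 0.71). The value was 0.60 for H4K8ac and H3K18ac, 0.58 for H3K23ac and H3K4me3, and 0.53 for H3K4me3 and H3K9ac. H2AK5ac had values from -0.04 (with H3K4me3) to 0.25 (with H3K14ac). These describe 76 genes in single libraries, where all lists share the same windows, neighbours and genome, and genes are no replicates.

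Core genes with a 5-prime TOP at the annotated start had coverage like the others. Within 2 kb of the start, the 17 genes with it had a median of 1237 bp of H3K4me3 and 1118 bp of H3K9ac, and the 39 without it had 1313 and 1057 bp. The 22 core genes with CCGGAAG had 1321 bp of H3K4me3 and the 34 without it 1287.5 bp. Over all promoters the motif went with more coverage: 967 bp of H3K4me3 at 2081 genes with it and 234 bp at 15411 without it.

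Other genes of translation showed peaks of all lists about as often as the core genes. All 8 lists were present at 5 of 7 elongation factor genes, 15 of 20 initiation factor genes and 23 of 29 ribosome biogenesis genes. The elongation factor genes had medians of 1524 bp in H3K9ac, 1868 bp in H3K23ac and 1500 bp in H3K4me3. Those of the initiation factor genes were 1201.5, 1144.5 and 1495 bp. Both sets lay above the core medians of 1080.5, 972 and 1300.5 bp, and the ribosome biogenesis genes lay below them, at 796, 894 and 1205 bp. Of 9 sensors of ribosomal stress and growth signals 6 had all 8, and of 10 S6 kinase genes also 6. Of 1110 olfactory receptor genes, known for their expression in the nose, 0 had all 8 and 550 had no peak. Rpsa, Rack1 and Fau, ribosomal protein genes outside the symbol rule, lacked H2AK5ac alone. Rpsa had 2037 bp of H3K4me3. Eef1a1 had 1475 bp, Eef2, which moves the ribosome along the message, 2502 bp and the nucleolar Npm1 1284 bp. Myc, which drives transcription of ribosome genes, had 2275 bp of H3K4me3 and 2306 bp of H3K9ac.

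Many core genes carry small nucleolar RNAs, guides of ribosomal RNA modification, inside their spans. The annotation places 56 of them in 29 of the 76 core genes (38.2%), where 1.70% of all protein-coding genes hold any. Rpl4 holds 5, and Rpl13a and Rpl7a hold 4 each.

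Read counts could be used only in part. A count belongs to 1 place only where its identifier holds 1 region, and all such identifiers stem from the H3K14ac list. At the ends of the members 197 such regions were found, at 65 of 90 genes, with 10.678 kb that no other region overlaps. The counting discards reads that overlap regions of several identifiers, and at core genes only 13.4% of the peak bases were free of such overlap, against 45.2% over all peaks. The counts therefore describe only the parts of these windows, at either gene end, that no other region overlaps.

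In these parts the H3K4me3 library had 1220 reads, or 77.3 CPM per kb, with an exact 95% Poisson interval of 73.1 to 81.8. Over the ends of all protein-coding genes it had 12.4 CPM per kb, and over all regions that can be placed 1.25. The H3K23ac library had 5.61 CPM per kb (4.98 to 6.30) against 0.978 at the ends of all genes, and H3K9ac 7.19 (5.98 to 8.57) against 2.38. H4K8ac had 9.04 (7.73 to 10.5) against 3.78, H3K27ac 14.01 (12.6 to 15.5) against 8.37, and H3K18ac 6.66 (5.48 to 8.03) against 4.77.

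The H3K14ac library, whose list chose these regions, had 11.9 CPM per kb (11.3 to 12.6) at the members and 12.2 at the ends of all genes. H2AK5ac had 10 reads, or 0.223 CPM per kb (0.107 to 0.410), all in 1 region at Rpl13a, against 0.544 at all gene ends. IgG had 0 reads in the regions that can be placed at the members, which allows up to 0.944 CPM per kb by the exact interval. In such regions at all gene ends it had 7.54. The intervals cover counting error only. Of the H3K4me3 reads, 37.2% came from 5 regions, and the largest sums by gene were 209 reads at Rps2, 152 at Rpl13a and 116 at Rpl37. The 5 fullest regions gave 70.1% of the 288 H3K23ac reads, 67.2% of the 125 H3K9ac reads, 50% of the 110 H3K18ac reads and 40.8% of the 169 H4K8ac reads.

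The densities of some libraries therefore rest on few regions. Without the 5 regions that held most of its reads, a choice made after seeing the data, the H3K9ac library had 2.47 CPM per kb and the H3K18ac library 3.53, against 2.38 and 4.77 at all gene ends, from which no region was removed. H3K23ac then had 1.75 against 0.978, H4K8ac 5.72 against 3.78, H3K27ac 10.98 against 8.37 and H3K4me3 51.9 against 12.4.

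**Figure D5:**
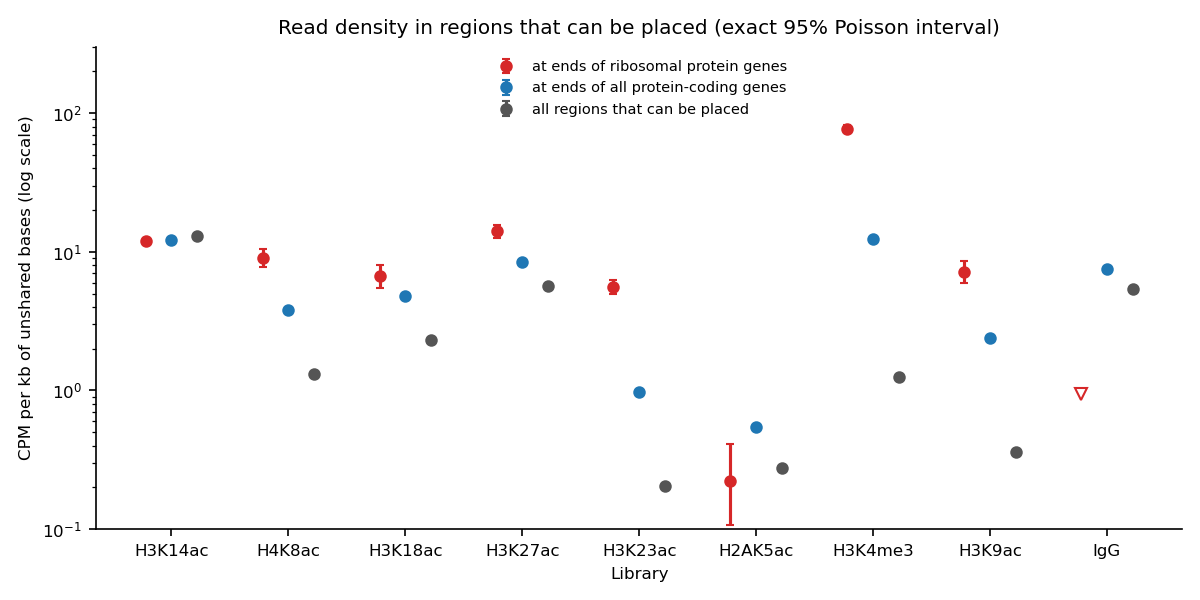
Read density (vertical axis, CPM per kb of unshared bases, log scale) in each library (horizontal axis), in regions that can be placed at the ends of ribosomal protein genes (red), at the ends of all protein-coding genes (blue) and anywhere (grey), with exact 95% Poisson intervals. The open triangle is the upper limit of 0.944 for IgG, which had 0 reads in such regions at ribosomal protein genes, and H3K4me3 is the highest red point at 77.3.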

How the data were processed

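The authors deposited 1 table of raw read counts for 578465 region identifiers in 9 libraries, made with featureCounts 2.0.6 without strand, per the file headers. The submitters' processing notes name STAR, MACS2, Trim Galore and the builds mm10 and GRCm38.p6. The sources used here do not give the settings, how duplicates were handled, or whether IgG served as the control for calling peaks.

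The identifiers hold 1309635 regions, since 8 separately numbered lists share their names. Lists were separated so that each runs in genome order (0 breaks of order). Among such assignments the choice went by the gaps between successive regions of a list, given its mean spacing. A later step added how common each width was in the list. Separation by order alone used order and gaps without widths. The separated lists hold few regions under their commonest width. The width step decided 2644 regions. In a simulation of 45568 regions with shared names, 99.99% went back to the list they came from, and 98.5% by order alone. The simulated lists took their relative sizes and widths from the separated lists, so it does not test the width step independently. The search on the data kept at most 300 candidate assignments at a step, a limit that was reached. Printed positions count from 1. Bases covered by peaks within 2 kb of both gene ends were summed per gene and list, and a list was counted with at least 1 base.

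Genes and promoter sequences came from RefSeq tables of GRCm38.p6. Promoter entries matched 69 of 90 members, and the first entry of a gene gave its start. Rpl7, Rps20, Rpl21, Rpl34-ps1, Rpl32, Rplp1, Rpl29, Rps27a, Rpl23a, Rps29, Rpl30, Rpl8, Rpl3, Rpl36, Rps14 and Rpl17 were among those that did not match. A few genes are counted in the totals but not reported here by name. Counts were used for identifiers with 1 region, scaled to CPM over all identifiers and divided by the kb that no other identifier overlaps, with exact 95% Poisson intervals. Python 3.11.15, numpy 2.4.6, pandas 2.3.3, scipy 1.17.1 and numba 0.67.0 were used.

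Members, gene lists and alternatives were chosen with earlier results of these data known. Named genes were members with the fewest lists (up to 12), the extremes of each list, paralogs with their counterparts, and members of known role.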

Additional observations from a re-analysis of the deposited data

How the results depend on the processing

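Peak results were recomputed under 9 alternatives: windows of 1 kb, 5 kb, around the annotated start or over the whole gene, peaks wider than the commonest width, at least 100 covered bases, separation by order alone, members without paralogs, and members without close neighbours. The share of members with a peak stayed within 1.5 times its main value for every list and alternative except H2AK5ac, which fell to 12.2% of members (12.7% of all genes) when only wider peaks counted. The share of members with all 8 lists was then 10% (9.96% of all genes). The other lists began at 88.9% to 96.7% of members and could rise little, and no share could fall in the wider windows. The share of all genes rose more there. Over the whole gene it was 55.2% for H2AK5ac (63.3% of members) and 44.6% for all 8 lists (60% of members). With 5 kb windows it was 93.0% for H3K14ac (96.7% of members). Leaving H2AK5ac out, chosen after seeing the data, gave 86.7% of members with any peak and 73.3% with a wider peak of all 7 other lists. The looser search for a pyrimidine run, also chosen later, found 57.1% of core promoters in place of 30.4%. With 5 kb windows the read densities left their counting intervals for H4K8ac (7.54 CPM per kb), H3K4me3 (61.2) and H3K9ac (5.10), and stayed within them for the other 6 libraries. Without each library's 5 fullest regions, chosen after seeing the data, the density was below its interval in each of 7 libraries: 10.37 CPM per kb for H3K14ac, 5.72 for H4K8ac, 3.53 for H3K18ac, 10.98 for H3K27ac, 1.75 for H3K23ac, 51.9 for H3K4me3 and 2.47 for H3K9ac. H2AK5ac, with 1 region, and IgG, with 0 reads, were not recomputed this way. Asking for 100 bases inside the window kept all 9 within. No paired analysis was possible because each target has 1 library. With 1 library a mark there was also no replicate to leave out. IgG, the shallowest library with 365999 reads, had 0 reads in the 197 regions that could be placed at these genes. Its reads in the other regions there could not be placed.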
